A study of Drosophila melanogaster with 4 samples.

Results

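The interior of the X chromosome, from 2000001 to 20422827 of its 22422827 bases in FlyBase release 5, held 1316 of the 9853 LSD1 clusters in the combined list. A cluster is a region that the authors marked as significantly enriched in LSD1 ChIP over input chromatin. Members are the clusters whose midpoint lies in that span, which leaves 2 Mb off each end of the chromosome. Position alone chose them, and neither width nor value entered the rule. On the telomere side, the first member runs from 1998622 to 2003148 with a value of 0.55, and the last cluster left out runs from 1989982 to 1997634 with 0.43. On the centromere side, the last member runs from 20395188 to 20397248 with 0.46, and the first cluster left out runs from 20519144 to 20520300 with 0.43. The interiors of 2L, 3L and 3R, cut in the same way, held 1498, 1788 and 1927 clusters and serve here as the autosomal comparison.

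The chromatin came from nuclei of wild-type 3rd instar larvae of the strain Oregon-R-modENCODE, cross-linked with formaldehyde, and all 4 libraries share this source. They are 2 immunoprecipitations with the LSD1 antibody Q3430 and 2 inputs, 1 for each immunoprecipitation. Whole larvae hold many cell types, and the labels give neither their sex nor whether the replicates came from separate collections, so differences between replicates may be technical. Each replicate has its own cluster list, and the combined list covers the replicate set. Per list, the X interior held 843 clusters in replicate 1 and 1028 in replicate 2.

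LSD1, encoded by Su(var)3-3 in the fly, removes methyl groups from lysine 4 of histone H3, a mark of active promoters and enhancers. It is known in Drosophila for its part in gene silencing, in the spread of heterochromatin and in germline development. The fly X differs from the autosomes in copy number between the sexes. In males its genes are transcribed at a raised rate under the MSL dosage compensation complex.

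The X interior carried fewer LSD1 clusters per Mb than the autosomal interiors in the combined list. It held 71.4 clusters per Mb (95% interval 67.6 to 75.4), against 78.8 on 2L, 87.0 on 3L and 80.6 on 3R. Against the 3 autosomal interiors together the ratio was 0.87 (interval 0.82 to 0.92). In replicate 1 the X interior held 45.8 clusters per Mb, between the 43.9 of 3R and the 46.6 of 2L, and the ratio was 0.97 (interval 0.90 to 1.05). In replicate 2 it held 55.8, below the 63.9 of 3R, the 64.6 of 2L and the 73.6 of 3L, with a ratio of 0.83 (interval 0.77 to 0.89). Over the replicates the ratio was 0.90 ± 0.10 (SD, n = 2), so the lower density on X was within 1 SD of parity. These exact intervals cover counting error only, and clusters near each other are not independent. With 1 X interior against 3 others, an exact permutation over chromosome arms cannot give a p below 0.25, so no test over arms was made.

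Covered bases gave the same order in each replicate, with X the lowest of the 4 interiors. Clusters covered 22.00% of the X interior in replicate 1 and 19.6% in replicate 2, a mean of 20.8 ± 1.7% (SD, n = 2). The autosomal interiors together had 24.1% and 26.8%. In replicate 1 the X value and that of 3R, 22.05%, were nearly equal. In replicate 2 the nearest, again 3R, had 24.3%. The combined list covered 29.5% of the X interior and 32.4% to 39.8% of the others. The direction of the difference in cluster density depended on the weaker clusters. With the weaker 50% of every list left out, X held 1.22 ± 0.18 (SD, n = 2) times as many clusters per Mb as the autosomal interiors, and 1.26 times in the combined list. The cut was the median value of each whole list, at 0.43 for the combined list and 0.64 and 0.62 for the replicates. The X medians lay above it, at 0.48, 0.72 and 0.66. A larger share of clusters thus stayed on X, so the turn is not separate from the higher values there.

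Most members were short. The median width in the combined list was 1989 bp (interval 1919 to 2073), against 1961 bp (1927 to 1993) on the autosomal interiors. In replicate 1 the medians were 2565 bp on X and 2381 bp on the autosomal interiors, and in replicate 2 they were 2127.5 and 2096 bp. The ratio of the medians was 1.05 ± 0.04 (SD, n = 2) over the replicates. With the weaker 50% of every list left out it turned to 0.80 ± 0.03 (SD, n = 2), and to 0.73 in the combined list. That cut kept a larger share of clusters on X, so the turn in width is not separate from the higher values there. With clusters up to 1000 bp apart joined, the ratio of the medians was 1.11 over the replicates and 0.92 in the combined list. Members under 2 kb numbered 668, or 50.8% of all. Broad domains, taken here as clusters wider than 10 kb, numbered 119 on the X interior. They were 9.04% of the members (interval 7.55 to 10.7), which is near the 9.19% of all clusters of the combined list, and they held 42.2% of the members' bases. On the autosomal interiors 9.48% of clusters and 46.4% of bases were in such domains.

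The widest cluster was shorter on X than on each autosomal interior in every list. The widest member spanned 52097 bp, while the widest clusters of 2L, 3L and 3R spanned 96413, 99225 and 105201 bp. In replicate 1 the widest X interior cluster had 40270 bp, against 77837 to 106037 bp on the other interiors. In replicate 2 it had 33739 bp, against 52245 to 87588 bp. The 90th percentile of width was lowest on X in replicate 2 only, at 7075 bp against 7720.5 to 8842 bp. In replicate 1 it was 11337 bp on X, against 11232 to 11592 bp on the others. In the combined list it was 9241 bp, against 8645 to 10812 bp. Clusters of 20 kb or more numbered 26 on X in replicate 1, or 0.74 times the autosomal density (interval 0.46 to 1.14). Replicate 2 had 10 of them on X, or 0.36 times (interval 0.17 to 0.68). The combined list had 44, or 0.86 times (interval 0.60 to 1.20). Each ratio was below 1, and only the interval of replicate 2 lay wholly below it. At the threshold of 10 kb the replicates differed, with 0.99 times the autosomal density in replicate 1 (interval 0.79 to 1.24) and 0.63 times in replicate 2 (interval 0.47 to 0.83).

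**Figure D1:**
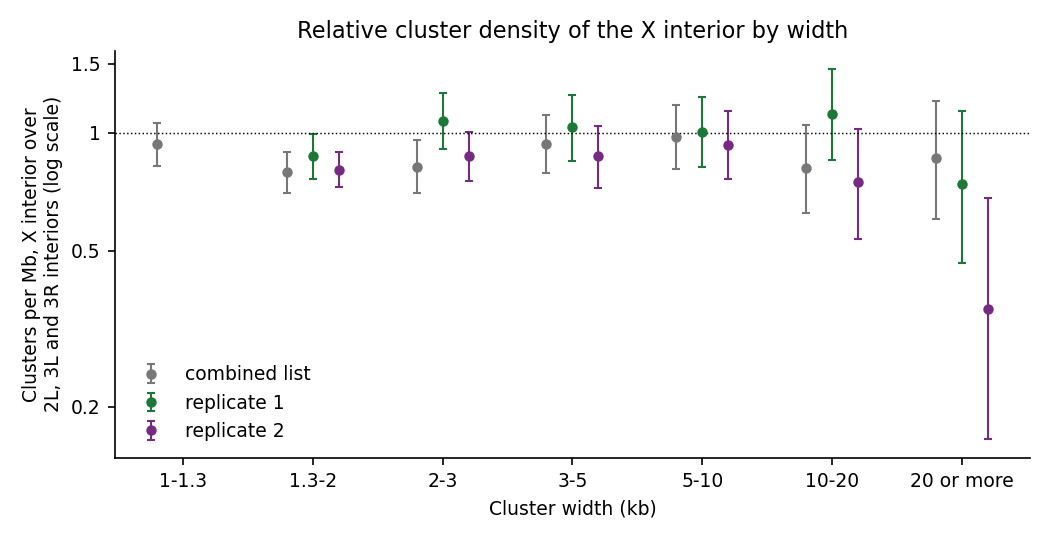
Clusters per Mb of the X interior divided by those of the 2L, 3L and 3R interiors together (log axis), by cluster width, for each list. Bars are exact 95% intervals for counting error, and the lowest point is that of replicate 2 at 20 kb or more, 0.36.

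Clusters under 1301 bp, which only the combined list holds, had 0.93 times the autosomal density (interval 0.82 to 1.06). Short clusters from 1301 bp to under 2 kb were thinner on X in every list. Their density was 0.79 times the autosomal one in the combined list (interval 0.70 to 0.89), 0.87 times in replicate 1 (0.76 to 0.99) and 0.81 times in replicate 2 (0.73 to 0.89). Clusters from 5 kb to under 10 kb lay close to parity, at 0.98, 1.01 and 0.93 times, and the intervals of these 3 ratios include 1.

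Each member carries one value from the authors, read here as the log2 ratio of ChIP over input. The strongest members found in both replicates were broad. Found in both means overlapped by at least 1 bp by a cluster of each replicate. Of the 12 with the largest values, 11 were wider than 10 kb and 5 lay between 3 and 4 Mb. The highest was a domain of 21173 bp from 5776624 to 5797796, with a combined value of 1.48. The replicates gave 1.56 and 1.33. It was 1 unbroken cluster in each replicate, covered to 99.9% and 97.9%.

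The second and the third lay side by side. They ran from 12608536 to 12629208 and from 12629956 to 12648416, parted by 747 bp, with values of 1.39 and 1.38. In replicate 1 the largest overlapping values were 1.67 and 1.68, and in replicate 2 they were 1.13 and 1.28. Together they made a block with a single short break. The fourth, from 3654134 to 3675620, had a combined value of 1.34, with 1.63 and 1.29 in the replicates. A run of 28901 bp without clusters followed it.

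A group of strong domains lay between 3.2 and 3.7 Mb. The domain from 3284780 to 3309754 had 1.26 and that from 3314654 to 3346738 had 1.25, with 4899 bp between them. Both were covered to at least 94.8% in each replicate. The next entries, from 3565072 to 3570854 and from 3570916 to 3582824, had values of 1.24 and 1.25 and lay 61 bp apart. A single cluster of replicate 1 with a value of 1.41 spanned both, so they are 1 region there. Between the 2 groups lay one of the longest gaps of the X interior, from 3373919 to 3553559.

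The other strong members were spread over the chromosome. A domain of 35049 bp from 6868836 to 6903884 had 1.30 and was 1 cluster in each replicate. Others ran from 8301458 to 8317426 (1.25), from 14960074 to 14976774 (1.25) and from 19178488 to 19192546 (1.24). In 11 of the 12 the largest overlapping value was higher in replicate 1 than in replicate 2. The exception was the domain from 19178488, with 1.21 in replicate 1 and 1.22 in replicate 2. How each list was scaled is not given in the sources used here, so this order cannot be read as a difference in enrichment.

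The widest members were more often broken up than the members named above for their largest values. Their lower values follow from that choice. The 8 widest had values from 0.66 to 1.10, all above the X interior median of 0.48 in the combined list. The widest, of 52097 bp, ran from 17360666 to 17412762 with 0.81 in the combined list. It consisted of 4 clusters in replicate 1 and 5 in replicate 2, which covered 86.2% and 85.2% of it, and a gap of 98477 bp preceded it. The next, of 46485 bp from 12097762 to 12144246, had 0.72. Replicate 1 covered 82.3% of it in 9 clusters, and replicate 2 covered 48.5% in 8. It was the least supported of the 8 widest in replicate 2.

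Further domains, of 44811 bp from 3237212 to 3282022 and of 43301 bp from 11386656 to 11429956 had values of 1.01 and 0.85. The domain from 13113112 to 13154000, of 40889 bp with 1.10, was the one member of the 8 widest that formed a single cluster in replicate 1. It was covered to 98.5% and 96.5% in the replicates. The remaining 3 ran from 19247232 to 19285200 (0.82), from 6501690 to 6539256 (0.66) and from 18859168 to 18895552 (0.76). They were 3 to 5 clusters in replicate 1 and 6 to 8 in replicate 2.

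Close neighbours formed longer arrays. When clusters no more than 2 kb apart were joined, the longest array of the X interior spanned 104269 bp from 2853560 to 2957828. It held 17 members with values from 0.31 to 0.77, none of them among the strongest. Of the 17, 10 were found in both replicates, where the share over all members was 40.0%. The array was picked for its length, and wider members were more often found in both. Arrays longer than 50 kb numbered 11, or 0.60 per Mb, against 0.74 on 2L, 1.02 on 3L and 0.79 on 3R. The longest on those interiors spanned 278761, 223811 and 184875 bp. Replicate 1 had 3 arrays over 50 kb on the X interior, or 0.16 per Mb, against 0.47 per Mb on the autosomal interiors together. Replicate 2 had 1, or 0.05 per Mb, against 0.49. These X counts are small.

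Compact sites with high values were few among members found in both replicates. Among members of at most 3000 bp found in both replicates, the highest value was 0.90, for 2697 bp from 13637722 to 13640418. Its largest replicate values were 1.42 and 0.64. The next ran from 2971454 to 2973722 (0.88), from 7985544 to 7988534 (0.83), from 15902414 to 15904602 (0.79) and from 10770028 to 10772514 (0.73). Replicate 1 covered 84.3% to 97.6% of the bases of these 5, and replicate 2 covered 62.7% to 82.8%. Of the 51 members found in both with a value of at least 1, 33 were wider than 10 kb, against 126 of 167 on the autosomal interiors. Of all 65 X members with such values, 12 were found in neither replicate, against 22 of 189 on the autosomal interiors. By interior these were 6 of 60 on 2L, 12 of 72 on 3L and 4 of 57 on 3R. Over members of all values, the share found in neither was 30.9% on X and 28.7% on the autosomal interiors.

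In the combined list, members of the X interior stood further apart than clusters of the autosomal interiors. The median gap between neighbours in the combined list was 2867 bp (interval 2505 to 3235), against 2343 bp on 2L, 2151 bp on 3L and 2165 bp on 3R. The ratio to the autosomal interiors together was 1.29. In replicate 1 the median gap on X was 4771.5 bp, below the 5006 bp of 3R and above the 4231 and 4224 bp of 2L and 3L. In replicate 2 it was 3453 bp, above the 2690.5 to 3272 bp of the others. Over the replicates the ratio was 1.10 ± 0.06 (SD, n = 2). Gaps under 1 kb made up 29.3% of those on X and 33.2% of those on the autosomal interiors in the combined list. The direction turned with the weaker clusters left out: with the weaker 50% of every list left out the ratio was 0.77 ± 0.20 (SD, n = 2), and 0.79 in the combined list. As for density, that cut left a larger share of clusters on X.

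Long stretches without a cluster were common. In the combined list 142 gaps of 20 kb or more took up 43.6% of the X interior, against 40.0% of 2L, 29.8% of 3L and 41.1% of 3R. In the replicates such gaps took up 59.96% and 59.98% of X. In replicate 1 that lay between the 59.2% of 2L and the 60.8% of 3R, with 51.8% on 3L. In replicate 2 it was above the 50.7% of 2L, the 43.5% of 3L and the 51.6% of 3R. The count per Mb was 1.14 times the autosomal one in the combined list (interval 0.94 to 1.38), 0.98 times in replicate 1 (0.82 to 1.17) and 1.13 times in replicate 2 (0.95 to 1.34). These intervals all include 1.

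**Figure D2:**
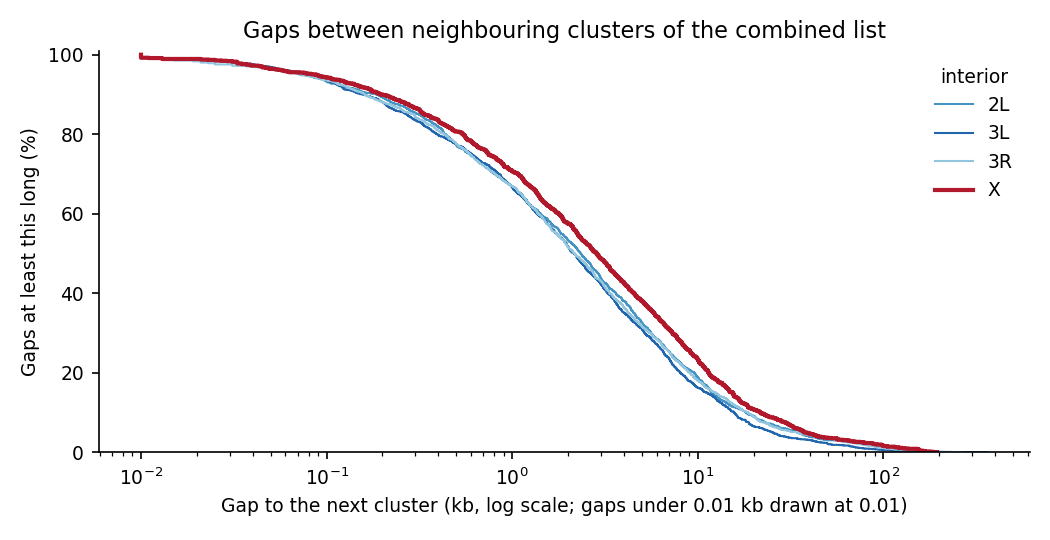
Share of gaps between neighbouring clusters of the combined list that are at least as long as the value on the x axis (kb, log scale), for the interiors of X, 2L, 3L and 3R. The X curve lies to the right in the middle of the range, with a median of 2867 bp, and ends earliest, at 194285 bp.

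In the combined list the longest gaps of X were shorter than the longest of each autosomal interior. They reached 194285 bp, from 12149081 to 12343365, and 187747 bp, from 14188261 to 14376007. On 2L, 3L and 3R the longest had 270359, 363259 and 272909 bp. Gaps of 100 kb or more numbered 22 on X, 20 on 2L, 11 on 3L and 21 on 3R. Others of the 8 longest on X ran from 5014617 to 5182951, from 17811275 to 17975351, from 19850321 to 20013457, from 6261091 to 6417331 and from 4609069 to 4765193, with lengths from 156125 to 168335 bp. The remaining one is the gap of 179641 bp from 3373919, between the groups of strong domains.

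Of these 8 gaps, 4 held no cluster in either replicate list. The gap from 3373919 held 3 clusters of replicate 2, that from 19850321 held 1 of replicate 2, and those from 12149081 and 6261091 held 1 of replicate 1 each. Among all 142 long gaps, 61 (43.0%) were empty in both replicates, against 37.8% of those on the autosomal interiors. A gap with too few reads or few mappable bases cannot be told from one without LSD1, since the lists give neither.

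Members at the edge of a long gap were narrower and less often found in the replicates. The 262 clusters that border a gap of 20 kb or more had a median width of 1711 bp, against 2073 bp for the other 1054 members. Of these border clusters 30.9% were found in both replicates and 38.5% in neither. The other members had 42.2% and 28.9%. On the autosomal interiors the shares found in both were 31.1% and 38.7%, in the same direction.

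Coverage varied along the chromosome over a narrower range than on the autosomes. In the 18 full windows of 1 Mb, the mean of the replicates ran from 11.97% to 30.3% with a median of 22.0% and an SD of 5.4 percentage points between windows. On the autosomal interiors 62 such windows ran from 6.37% to 40.8%, with an SD of 8.6 percentage points. The richest window was 13 to 14 Mb, with 31.8% in replicate 1 and 28.8% in replicate 2 (30.3 ± 2.1%, SD, n = 2). It held 12 broad members, the highest number of the 18 windows, among them the domain from 13113112. The next were 3 to 4 Mb (29.6 ± 0.3%), which holds 5 of the strongest members, and 2 to 3 Mb (27.1 ± 1.0%), which holds the longest array.

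The poorest window was 7 to 8 Mb, with 12.8% in replicate 1 and 11.1% in replicate 2. It still held 84 members, more than the median of 73 per window, but their median width was 1603 bp and 22.6% were found in both replicates. The window from 14 to 15 Mb had 13.8 ± 0.9% and that from 5 to 6 Mb had 14.3 ± 1.6%. The window from 12 to 13 Mb held the fewest members, 32, although 8 of them were broad. It contains the strong pair from 12608536 and the longest gap. Across the 18 windows the number of members and the covered share of the combined list had a Pearson's r of 0.30, and the covered shares of the replicates one of 0.97. Windows share libraries and neighbours, so these values are descriptions.

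**Figure D3:**
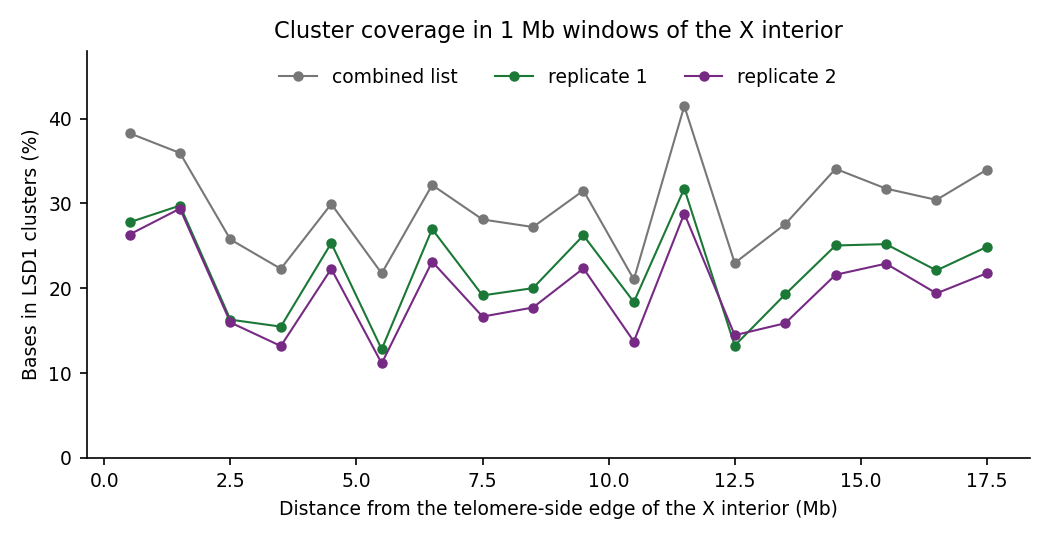
Share of bases in LSD1 clusters (%) in full 1 Mb windows of the X interior, plotted by distance from its telomere-side edge, for the combined list and both replicates. Replicate 2 lies below replicate 1 in 17 of 18 windows.

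Support by the single replicates differed from the autosomes in its balance rather than in its total. Of the 1316 members, 526 (40.0%, interval 37.3 to 42.7) were found in both replicates, near the 38.1% of the whole combined list. On 2L, 3L and 3R these shares were 38.0%, 37.8% and 37.1%. The X members found in both held 76.1% of the members' bases. Another 406 members (30.9%, interval 28.4 to 33.4) overlapped neither replicate, where the whole list had 29.1%.

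Among members found in a single replicate, X was evenly divided. Replicate 1 alone overlapped 198 members (15.0%, interval 13.2 to 17.1) and replicate 2 alone 186 (14.1%, interval 12.3 to 16.1). On the autosomal interiors replicate 1 alone overlapped 9.32% (interval 8.55 to 10.1) and replicate 2 alone 24.4% (interval 23.3 to 25.6). The values on 2L, 3L and 3R lay within 9.17% to 9.55% and within 23.5% to 25.1%. Both X values thus lay outside the range of the 3 autosomal interiors, and their counting intervals do not meet. The combined list was made from the replicates, so this is a description of how it draws on them.

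**Figure D4:**
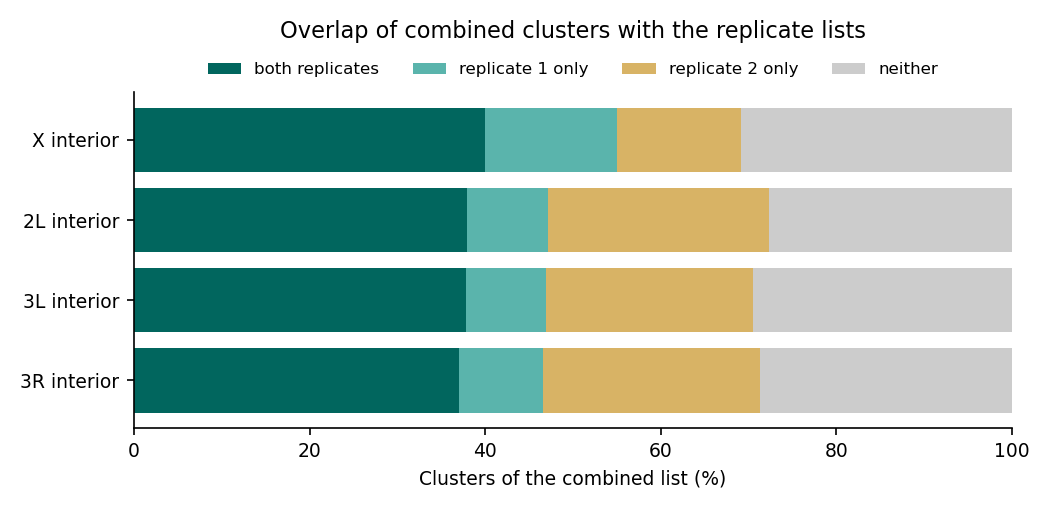
Shares of combined clusters (%) overlapped by at least 1 bp by clusters of both replicates, of 1 replicate or of neither, for each interior. The replicate 1 segment is 15.0% on X and at most 9.55% on the others, and the replicate 2 segment is 14.1% on X and at least 23.5% on the others.

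Support rose with width. Of the members under 1301 bp, which is the narrowest width in either replicate list, 1 of 320 was found in both replicates. From there to under 2 kb it was 8.62%, from 2 kb to under 3 kb 47.5%, and from 3 kb to under 5 kb 74.9%. Of the 265 members of 5 kb or more, 264 were found in both (99.6%, interval 97.9 to 99.99). The exception, of 5211 bp from 13472252 to 13477462 with a value of 0.41, overlapped 2 clusters of replicate 2 and none of replicate 1. The autosomal interiors had similar shares by width. They were 0%, 8.14%, 43.6% and 71.8% in the same classes under 5 kb. At 5 kb or more, 990 of 1009 autosomal clusters (98.1%) were found in both, so this rise is not particular to X. A wider region offers more bases to overlap, so width and support are not independent. The share found in both depended on the overlap required. It was 33.6% of the X interior members with at least 50% of the member covered in each replicate, and 25% with reciprocal overlap of at least 50%. Without members under 1301 bp, a setting chosen after the data were seen, it was 52.7%.

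The replicates divided their bases differently on X than on the autosomes. Replicate 2 covered 3.62 Mb of the X interior and replicate 1 covered 4.05 Mb, a ratio of 0.89. On 2L, 3L and 3R the ratio was 1.14, 1.10 and 1.10. Relative to the autosomal interiors the X ratio was 0.80, while the 3 autosomal interiors had an SD of 0.02 on this scale. In clusters, replicate 2 held 1.22 times as many as replicate 1 on X and 1.39 to 1.46 times on the others. Per window, replicate 2 covered less than replicate 1 in 17 of 18 windows of X and in 8 of 62 autosomal windows. Only the window from 14 to 15 Mb went the other way on X, with a ratio of 1.09. Each replicate is 1 ChIP library, with an input of its own per the labels. A library difference that touches X alone cannot be told apart from a biological one here.

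Matched clusters showed the same imbalance in their widths. On the X interior 594 clusters of replicate 1 had a partner in replicate 2, each being the other's largest overlap. The cluster of replicate 1 was the wider in 443 pairs (74.6%), and the median ratio of the widths, replicate 2 over replicate 1, was 0.80. On 2L, 3L and 3R replicate 1 was wider in 54.1%, 59.6% and 60.5% of pairs, with median ratios of 0.98, 0.95 and 0.94. Partner edges on X lay a median of 469 bp apart, against 396 bp on the autosomal interiors. Values of the X pairs had a Pearson's r of 0.69 and widths one of 0.88, across clusters of the same libraries.

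Sharing between the replicate lists followed this pattern. On the X interior 624 of the 843 replicate 1 clusters (74.0%, interval 70.9 to 77.0) had a replicate 2 cluster on them, against 82.3% on the autosomal interiors. For replicate 2 it was 799 of 1028 (77.7%, interval 75.1 to 80.2), against 64.4%. Bases in both lists were 63.7% of the bases in either on X and 66.1% on the autosomal interiors. No cluster over 10 kb of either replicate on the X interior lacked a partner in the other, and the same held on 2L, 3L and 3R.

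Values of X interior clusters were higher than those of the autosomal interiors in every list. In the combined list the median was 0.48 (interval 0.47 to 0.49), against 0.42 on 2L, 0.42 on 3L and 0.41 on 3R. In replicate 1 it was 0.72 (interval 0.70 to 0.74), against 0.61 to 0.63. In replicate 2 it was 0.66 (interval 0.65 to 0.67), against 0.58 to 0.62. The difference from the autosomal interiors together was 0.08 ± 0.03 (SD, n = 2) on the log2 scale, and 0.07 in the combined list. With the weaker 50% of every list left out it was 0.016 ± 0.0086 (SD, n = 2), and 0.018 in the combined list. That cut is on the value itself, so the smaller difference is no separate result. The low end moved too: the 5th percentile on X was 0.28 for the combined list and 0.46 and 0.42 for the replicates, against 0.24, 0.39 and 0.38. Without read numbers, the part of a different calling limit on X was not tested.

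The difference was seen at most widths. Between 5 kb and 10 kb, X medians were higher by 0.09 for the combined list and by 0.12 and 0.08 for the replicates. From 1301 bp to under 2 kb they were higher by 0.05, 0.06 and 0.05. From 10 kb to under 20 kb the differences were 0.011, 0.017 and 0.0016. At 20 kb or more the lists disagreed in sign, with -0.05 for the combined list and 0.16 and 0.04 for the replicates, the last from 10 clusters on X. Clusters with a value of at least 1 were 1.42 times as dense on X as on the autosomal interiors in replicate 1 (interval 1.16 to 1.75), 1.21 times in replicate 2 (0.92 to 1.58) and 1.18 times in the combined list (0.88 to 1.58).

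**Figure D5:**
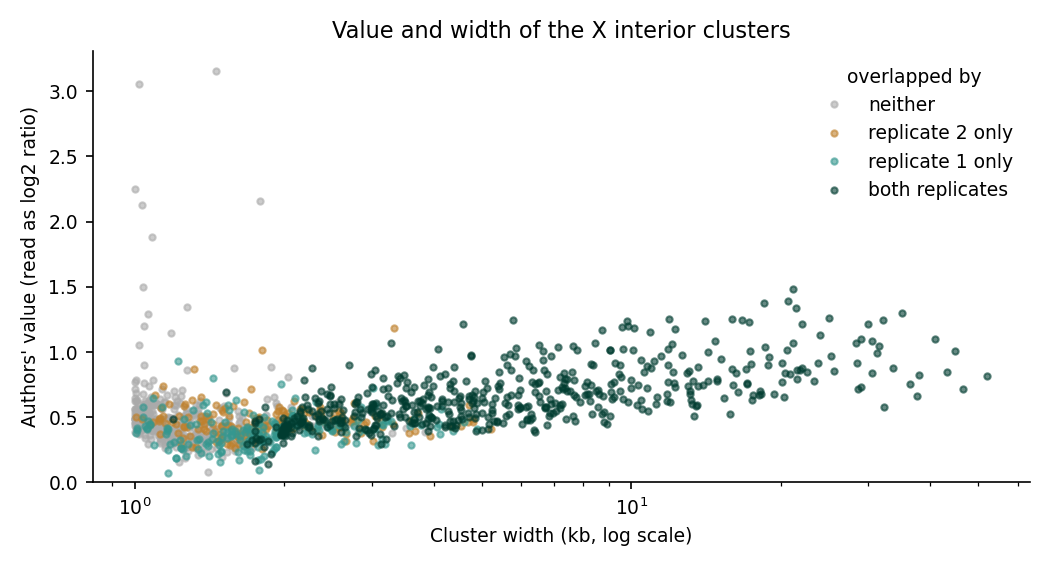
The authors' value (read as a log2 ratio) against width (kb, log scale) for each of the 1316 X interior clusters of the combined list, coloured by the replicates that overlap it. Values tend to rise with width (Spearman's rho 0.48 over all members), but not among the narrowest. Members under 1301 bp have a median of 0.46, and those from 1301 bp to under 2 kb 0.39. The 7 values above 1.48 all belong to short clusters found in neither.

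The largest values of all belonged to members that no replicate list holds. On the X interior 7 members exceeded 1.48, the highest value among those found in both, and all 7 overlapped neither replicate. They were 1001 to 1785 bp wide. The highest were 3.16 from 11432100 to 11433552, 3.06 from 16234614 to 16235630 and 2.25 from 2293936 to 2294936. The first lies 2143 bp beyond the end of the broad domain that starts at 11386656. The autosomal interiors had 10 clusters above their own highest value for clusters found in both, again all of them in neither replicate list. The number of reads behind these values is unknown.

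Clusters without a partner in the other replicate included some with large values. The largest value of replicate 1 on X without a partner in replicate 2 was 1.27, from 10884066 to 10885517, with 0.80 in the combined list. The next were 1.15 from 12574811 to 12579019 and 1.06 from 9619707 to 9621249, with 0.73 and 0.63. In replicate 2 the highest was 1.64 from 11210155 to 11212174, with 1.18 in the combined list. Those from 7927317 to 7930005 and from 19838672 to 19840167 had 1.09 and 1.07, with 0.61 and 0.87. All 6 overlapped a member of the combined list. They were picked for their replicate values, and values over the whole combined list were lower than over the replicate lists, with medians of 0.43 against 0.64 and 0.62, so levels were not compared between lists.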

How the data were processed

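LSD1 ChIP-seq clusters came as 3 lists, 1 for each of 2 ChIP replicates and 1 for the replicate set. Bowtie 0.12.7 appears among the tools named, per the submitters' processing notes. How clusters were called, scaled and combined is not given in the sources used here, and depth is unknown. Coordinates are FlyBase release 5, 1-based, per the file headers. The gene table at hand is of release 6, so no gene or sequence was assigned.

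The authors made 1 value per cluster from ChIP against input and deposited it with no unit, and it was read as a log2 ratio. Recurring values, those seen at least 4 times, were set against log2 of ratios with a denominator of at most 60, taken from the commonest value. Within 1e-06, 30 of 122 matched in the combined list, 26 of 45 in that of replicate 1 and 56 of 133 in that of replicate 2. The natural log matched 0 in every list, and log10 matched 1 in replicate 2. The 1 depleted entry was left out.

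Counts carry exact Poisson, shares exact binomial (Clopper-Pearson), medians order-statistic and density ratios conditional binomial intervals, all at 95%. Code was tested on simulated data. Alternatives are in the closing section. Named clusters follow a rule. Of members found in both replicates these are the 12 largest values, the 8 widest, and the 5 largest values up to 3000 bp. Others are the 3 largest values found in neither, the 3 largest single clusters per replicate, the 8 longest gaps, and the 3 richest and 3 poorest windows. The longest array, the window with fewest members and the exception at 5 kb were named after their values were seen. Members and rules were chosen with earlier results of these data known. Python 3.11.15, numpy 2.4.6, scipy 1.17.1 and matplotlib 3.10.9 were used.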

Additional observations from a re-analysis of the deposited data

How the results depend on the processing

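Beside leaving out a replicate, 50 alternative values were computed, and 36 stayed within the limits used: 1 SD of the replicates, the 95% interval for the combined list (for covered share the SD of the replicates), the SD between autosomal interiors for the replicate balance, and 1.5 times for the count of named clusters. Values of single replicates lie within that SD by construction and show nothing on stability. Keeping the 50% of clusters with the larger values turned 3 ratios of X to the autosomal interiors. Cluster density went to 1.22 over the replicates and 1.26 in the combined list, median width to 0.80 and 0.73, and median gap to 0.77 and 0.79. The ratio of covered shares stayed below 1. The difference in value shrank to 0.016 and 0.018. The cut was the median value of each whole list and kept a larger share of X than of autosomal clusters. These changes are therefore not separate from the higher values on X. Joining clusters up to 1000 bp apart moved the width ratio from 1.05 to 1.11 over the replicates and turned it from 1.01 to 0.92 in the combined list. Above 20 kb the domain density ratio over the replicates was 0.55. The share found in both replicates fell from 40.0% to 25% with reciprocal overlap of at least 50% and to 33.6% with at least 50% of the member covered, and was 52.7% without members narrower than any replicate cluster, a setting chosen after the data were seen. Taking 1 Mb or 3 Mb off each end changed no direction. Leaving out replicate 1, the density ratio of domains over 10 kb was 0.63, and leaving out replicate 2 it was 0.99. With reciprocal overlap 17 of the 25 named clusters were found in both. The causes were not tested. No paired analysis was possible because the input libraries enter only through the authors' calls and no result comes from a test. Without read numbers, what depth limits is unknown.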
